A study of Homo sapiens with 12 samples.

Results

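Genes often used to mark liver cancer stem cells were followed in poly-A RNA from a pair of human hepatocellular carcinoma lines: CD44, EPCAM, PROM1, CD24, ANPEP, THY1, CD47, ALDH1A1, SOX2 and KIT. They were chosen by name, as 10 of the 58735 genes in the deposited tables, and all 10 passed the filter on low counts that left 19342 genes for testing. The set is usually called surface markers, and 8 of the 10 encode proteins of the cell surface. The other 2 do not: ALDH1A1 is a cytosolic enzyme and SOX2 a nuclear transcription factor.

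The study grew wild-type Huh7 and HLF cells in 3 ways, with 2 biological replicates in each of the 6 groups and 12 libraries in all. Huh7 is an epithelial line that keeps many hepatocyte genes, and HLF is a poorly differentiated line with mesenchymal features. Flat 2D cultures were taken at day 2, near 90% confluence. The 3D cultures were taken between day 6 and day 8 from Matrigel, a basement membrane extract: in Inject-Embed 4000 Huh7 or 2000 HLF cells were injected into the centre of a set gel, and in Mix-Embed 20000 Huh7 or 10000 HLF cells were mixed into gel and layered on a set one. All groups were wild type, and both lines were kept in DMEM with serum and antibiotics. Against 2D, culture form, cells seeded and days in culture changed together and cannot be told apart. Between the 3D cultures the labelled days were the same, and culture form and cells seeded cannot be told apart. Between the lines in a 3D culture, line and cells seeded cannot be told apart either, and each line is 1 line, so a difference between them describes these lines.

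Library totals ran from 12325877 to 16041906 counts, and replicates of a group differed by more than counting noise, with a chi-square of 2.13 to 3.71 per gene. Of 8 hepatocyte markers, all 8 reached 1 CPM (counts scaled to library size) in every Huh7 group, with a summed level of 16831 to 22024 CPM per library. In HLF 2 of the 8 did, the sum was 26.9 to 168.4 CPM, and the defining genes APOB, TTR and APOA2 had no count. In Huh7 the sum was at least 21519 CPM in 2D, 20863 to 21248 in Mix-Embed and at most 17188 in Inject-Embed, but the 8 genes did not move together. Against 2D, 2 were higher and 5 lower in Inject-Embed and 4 and 2 in Mix-Embed, and ALB went from 357.3 CPM in 2D to 1169 in Inject-Embed while TF went from 5306 to 3408. In HLF the sum was nearly all FGB, at 166.3 CPM in 2D, 26.5 in Inject-Embed and 44.3 in Mix-Embed, while SERPINA1 went from 1.03 CPM in 2D to 2.36 and 4.41. Mast cell markers, listed because KIT marks that cell, summed to at most 0.34 CPM, with TPSAB1 and TPSB2 at 0 in all groups. The 8 fibroblast or stellate cell markers, listed because THY1 marks those cells, summed to 343 to 370.1 CPM in HLF. In Huh7 they summed to 149.1 to 150.8 CPM in 2D, 92.5 to 98.8 in Mix-Embed and 47.2 to 53.4 in Inject-Embed. Most of the Huh7 sum was COL1A2, at 133 CPM in 2D, 79.9 in Mix-Embed and 41 in Inject-Embed. That gene was at 1.05 to 1.85 CPM in the HLF groups. In HLF 2D the largest were COL3A1 (120.1 CPM), PDGFRB (96.3) and COL1A1 (91.1), and DCN stayed under 1 CPM in every group. The part of these levels in the results for the members was not tested.

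As background, a stem cell marker is a gene whose product was used to sort the tumour cells that seed new tumours or resist drugs. CD44 is a receptor for the matrix sugar hyaluronan, EPCAM an adhesion molecule of epithelia and hepatic progenitors, and PROM1 (CD133) a glycoprotein of membrane protrusions. CD24 is a small, heavily glycosylated protein held by a lipid anchor, and CD47 signals to phagocytes through the receptor SIRPA; both restrain engulfment by macrophages. ANPEP (CD13) is a peptidase that trims peptides outside the cell, THY1 (CD90) a lipid-anchored protein of stromal cells, and KIT the receptor tyrosine kinase for stem cell factor. ALDH1A1 oxidises retinal to retinoic acid and other aldehydes, and SOX2 helps to maintain pluripotency.

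Promoter sequences are shown for 3 members on which the results turn, KIT and ANPEP because each was read in 1 line and nearly absent from the other, and ALDH1A1 because it moved in opposite directions in the lines. They are the 250 bases before annotated starts in RefSeq on GRCh38.p14, printed 5′ to 3′ on the gene's strand. Capitals mark matches on either strand to 4 motifs chosen after the sequences were read. They are the GC box, GGGCGG; the CCAAT box; a TATA-like motif, TATAA; and core letters of the site of the hepatocyte factor HNF1, GTTAAT. RefSeq had windows for 8 of the 10 members, and EPCAM and THY1 are named only. ANPEP has 2 annotated starts, and the ALDH1A1 start lies inside the longer gene span of the deposited annotation.
KIT (chr4:54657707-54657956, + strand): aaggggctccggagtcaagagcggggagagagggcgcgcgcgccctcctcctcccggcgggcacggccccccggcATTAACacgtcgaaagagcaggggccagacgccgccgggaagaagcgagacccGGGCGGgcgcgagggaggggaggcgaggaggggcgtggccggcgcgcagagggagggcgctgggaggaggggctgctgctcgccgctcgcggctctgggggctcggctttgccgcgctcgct
ANPEP start 1 (chr15:89814853-89815102, - strand): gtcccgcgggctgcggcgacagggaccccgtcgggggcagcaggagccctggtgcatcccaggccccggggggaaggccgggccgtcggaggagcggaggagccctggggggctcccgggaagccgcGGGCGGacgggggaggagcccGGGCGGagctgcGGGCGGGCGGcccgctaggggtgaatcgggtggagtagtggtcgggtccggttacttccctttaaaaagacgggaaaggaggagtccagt
ANPEP start 2 (chr15:89806629-89806878, - strand): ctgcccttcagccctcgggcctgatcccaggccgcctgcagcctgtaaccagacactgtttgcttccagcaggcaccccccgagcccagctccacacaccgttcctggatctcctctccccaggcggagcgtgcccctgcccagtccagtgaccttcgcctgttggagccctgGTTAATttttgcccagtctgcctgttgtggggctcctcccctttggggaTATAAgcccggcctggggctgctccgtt
ALDH1A1 (chr9:72953054-72953303, - strand): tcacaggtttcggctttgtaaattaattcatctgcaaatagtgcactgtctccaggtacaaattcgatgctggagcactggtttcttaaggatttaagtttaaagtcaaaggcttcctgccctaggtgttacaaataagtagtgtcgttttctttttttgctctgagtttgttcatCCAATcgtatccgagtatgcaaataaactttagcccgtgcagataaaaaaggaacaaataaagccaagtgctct

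The windows differ in composition. The KIT window is 76.4% G or C, the ANPEP windows 74% and 64.4%, and the ALDH1A1 window 38.4%, beside a median of 58% over 34943 windows of the same length. KIT holds 1 GC box and 1 HNF1 core. The first ANPEP start holds 4 GC boxes, and the second holds 1 HNF1 core and 1 TATA-like motif. ALDH1A1 holds 1 CCAAT box and none of the other 3 motifs. Among all windows, 42.5% hold the GC box, 32% the CCAAT box, 19% the TATA-like motif and 6.2% the HNF1 core, so the matches are descriptions of these letters only.

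The members split first by line. In all 3 cultures, 4 members stood at 1 CPM or more in both lines (CD44, CD24, CD47 and ALDH1A1), 3 in Huh7 alone (EPCAM, PROM1 and ANPEP) and 2 in HLF alone (THY1 and KIT), and SOX2 reached it in neither. By edgeR's quasi-likelihood test, Huh7 against HLF gave an adjusted p under 0.05 for 9 of the 10 members in each culture, with 4 higher in Huh7 and 5 lower, and these 27 calls held in every alternative fit run. Most genes differed between the lines: 77.2% of all genes tested passed in 2D (38.1% higher and 39.2% lower), 77.1% in Inject-Embed (37.6% and 39.5%) and 76.9% in Mix-Embed (37.9% and 39.1%), so a count of 9 in 10 is not far from the background.

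**Figure D1:**
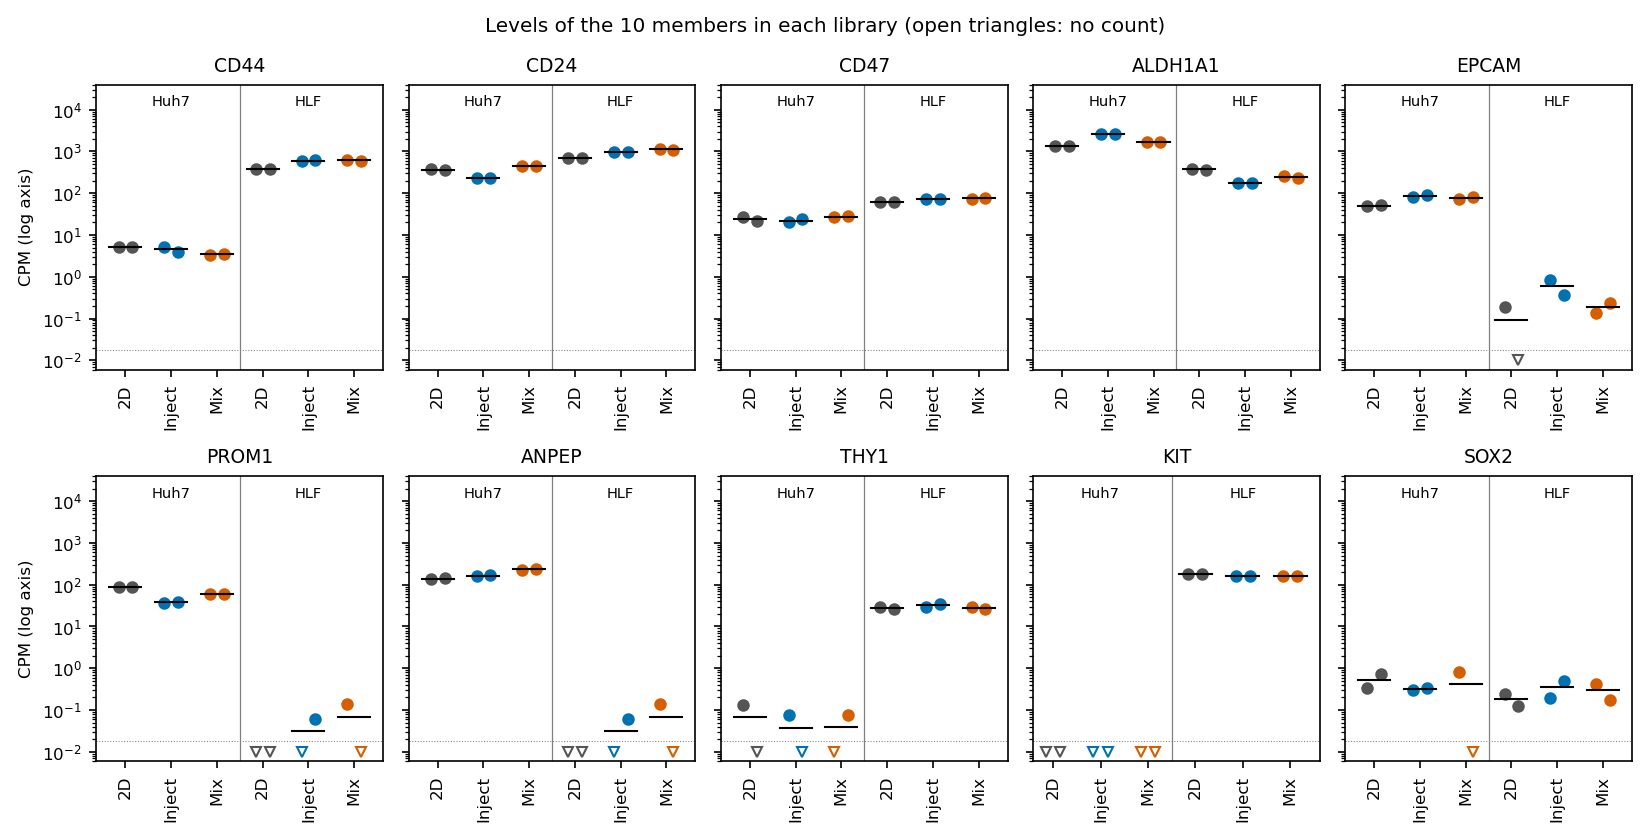
Level of each member in every library, in CPM on a log axis, for 2D, Inject-Embed (Inject) and Mix-Embed (Mix) in Huh7 (left of each panel) and HLF (right); points are libraries, black bars means of 2, and open triangles below the dotted line libraries with no count. KIT had no count in any of the 6 Huh7 libraries and 159.7 to 183.2 CPM in HLF, while SOX2 stayed under 1 CPM in all 12.

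KIT (ENSG00000157404, GRCh38 chr4:54657918-54740715, + strand) was the member with the plainest split. It had 0 counts in all 6 Huh7 libraries, which allows up to 0.101, 0.12 and 0.11 CPM in 2D, Inject-Embed and Mix-Embed (3 counts over the group). In HLF the libraries held 2957 and 2896 counts in 2D, 2488 and 2546 in Inject-Embed, and 2422 and 2715 in Mix-Embed. Every HLF library was thus far above every Huh7 library, and KIT was at least 1820-fold, 1340-fold and 1480-fold higher in HLF in the 3 cultures in the same order. At 34.1 ± 0.0428 FPKM (SD, n = 2) in HLF 2D it lay at the 94.1 percentile of protein-coding genes.

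THY1 (ENSG00000154096, chr11:119417378-119424985, - strand) also belonged to HLF. Its HLF libraries held 479 and 409 counts in 2D, 459 and 540 in Inject-Embed, and 418 and 436 in Mix-Embed, against 0 to 2 in each Huh7 library. The ratio in 2D was 414 (95% counting interval 114 to 3420), on 888 counts against 2, and the Inject-Embed and Mix-Embed ratios of 796 and 738 rest on 1 count in Huh7. THY1 overlaps USP2-AS1 on the opposite strand, which held 12 to 25 counts per library. Since the strand setting of the counting is not given in the sources used here, reads of the overlapping genes may be shared at that scale. Intervals and floors cover counting error only.

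ANPEP (ENSG00000166825, chr15:89784889-89815401, - strand) and PROM1 (ENSG00000007062, chr4:15963076-16084378, - strand) showed the reverse pattern. ANPEP held 2006 and 2161 counts in Huh7 2D, 2095 and 1981 in Inject-Embed, and 3282 and 3016 in Mix-Embed. PROM1 held 1308 and 1280 counts, 491 and 464, and 884 and 756 in the same order. In HLF each of them had between 0 and 2 counts in any library, and none in 2D. In 2D ANPEP was at least 1490-fold and PROM1 at least 925-fold higher in Huh7. EPCAM (ENSG00000119888, chr2:47345158-47387601, + strand) was very low in HLF, with 0 to 13 counts per library against 743 to 1072 in Huh7. In HLF 2D it had 3 and 0 counts, no more than the floor of 3 counts over the group. Its ratio in 2D was 539 (184 to 2610), on 1507 counts against 3.

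Among the 4 members read in both lines, CD44 (ENSG00000026508, chr11:35138870-35232402, + strand) differed most. In 2D it stood at 5.07 and 5.12 CPM in the Huh7 libraries and at 374 and 379.4 CPM in the HLF libraries, a log2 fold change of -6.21 ± 0.08 (SE, adjusted p = 5.41e-45). CD24 (ENSG00000272398, chr6:106969831-106975627, - strand) was at 371.4 and 365.3 CPM in Huh7 2D and at 706.4 and 702.1 in HLF 2D, a log2 fold change of -0.94 ± 0.04 (adjusted p = 6.35e-24). CD47 (ENSG00000196776, chr3:108043094-108091862, - strand) was at 27.4 and 21.8 CPM in Huh7 2D and 61.7 and 60.2 in HLF 2D, -1.31 ± 0.09 on the log2 scale (adjusted p = 4.87e-17). ALDH1A1 (ENSG00000165092, chr9:72900662-73080442, - strand) went the other way, at 1349 and 1359 CPM in Huh7 2D and 385.3 and 363.8 in HLF 2D, a log2 fold change of 1.85 ± 0.04 (adjusted p = 3.68e-35). For each of the 4, both replicates of one line were above both of the other. CD44-AS1, on the opposite strand of CD44, held 0 to 13 counts, and the processed copy CD24P4 held 2 to 42 counts beside 2695 to 18298 for CD24.

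Levels of different genes were ranked per unit of length. By deposited FPKM, ALDH1A1 was the highest member in Huh7 (443.3 ± 0.537 FPKM in 2D, n = 2) and CD24 the second (110.9 ± 1.74). In HLF the order was CD24 (236.2 ± 0.667 FPKM in 2D), ALDH1A1 (136.6 ± 5.34) and CD44 (39.1 ± 0.459). The ranks of these members were the same in the 3D cultures of each line. CD44 in Huh7 was at 0.475 FPKM in 2D, the 41.6 percentile of protein-coding genes, and at the 95 percentile in HLF 2D. SOX2 (ENSG00000181449, chr3:181711924-181714436, + strand) held 0 to 12 counts in a Huh7 library and 2 to 8 in an HLF library. No comparison of SOX2 passed the test. In HLF Inject-Embed against 2D the 95% interval of its log2 fold change ran from -1.12 to 2.86. Changes within those bounds are compatible with these few counts.

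In Huh7, ALDH1A1, EPCAM and ANPEP were higher and PROM1 and CD24 lower in Inject-Embed than in 2D. Of the 10 members 5 passed, 3 higher and 2 lower, where 29.9% of all genes tested passed (13.2% higher and 16.7% lower). The median absolute log2 fold change was 0.71 over the 8 members with more than 3 counts in both groups and 0.28 over all genes tested. SOX2, at -0.73 ± 0.89 on 8 counts against 16, is among the 8. In Mix-Embed against 2D of Huh7 the same medians were 0.43 and 0.23. In HLF against 2D they were 0.45 and 0.21 for Inject-Embed and 0.60 and 0.27 for Mix-Embed, over 7 such members with SOX2 among them. The median of 0.60 is the SOX2 value itself, 0.60 ± 1.02 on 9 counts against 6. Between the 3D cultures the medians were 0.46 and 0.24 in Huh7 and 0.23 and 0.16 in HLF, over 8 members with SOX2 again included. The members were chosen with earlier results of these data known. In bulk RNA a larger share of cells with a gene and more of its RNA per cell cannot be told apart, here and in all comparisons that follow.

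ALDH1A1 had the smallest adjusted p of the members in Huh7 Inject-Embed against 2D. Its libraries held 2558 and 2607 CPM in Inject-Embed against 1349 and 1359 in 2D, with no overlap, a log2 fold change of 0.93 ± 0.04 (adjusted p = 1.10e-22). PROM1 was at 37.2 and 39.4 CPM against 87.2 and 86.2, and fell by 1.18 ± 0.10 on the log2 scale (adjusted p = 1.96e-13). CD24 was at 231.8 and 229.1 CPM against 371.4 and 365.3, a log2 fold change of -0.68 ± 0.04 (adjusted p = 1.05e-16). The replicates of both genes stood apart by group, and the calls of ALDH1A1, PROM1 and CD24 held in all 21 alternative fits.

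EPCAM and ANPEP rose by less. EPCAM was at 79 and 91.1 CPM in Inject-Embed against 49.5 and 51.4 in 2D, a log2 fold change of 0.75 ± 0.09 (adjusted p = 1.76e-08). ANPEP was at 158.5 and 168.4 CPM against 133.7 and 145.5, 0.23 ± 0.06 on the log2 scale (adjusted p = 0.00503). Neither overlapped between the groups. The ANPEP call was lost without Huh7 2D replicate 1 (adjusted p = 0.0943) and without Huh7 Inject-Embed replicate 2 (adjusted p = 0.0871), and both calls were lost with limma on log2(FPKM + 0.1), at adjusted p = 0.236 for ANPEP and 0.0979 for EPCAM. CD44, at 5.15 and 4 CPM against 5.07 and 5.12, and CD47, at 20 and 24.2 CPM against 27.4 and 21.8, overlapped between the groups and did not pass (adjusted p = 0.606 and 0.287).

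Mix-Embed against 2D in Huh7 shared the direction of Inject-Embed for ALDH1A1, EPCAM, ANPEP and PROM1, and had the opposite sign for CD24; the comparisons share the 2D libraries. Of the 10 members 6 passed, 4 higher and 2 lower, where 21.7% of all genes tested passed (11.2% higher and 10.6% lower). ANPEP was at 228.6 and 234.7 CPM in Mix-Embed, a log2 fold change of 0.73 ± 0.06 (adjusted p = 2.25e-12). EPCAM was at 72.7 and 79.1 CPM (0.59 ± 0.09, adjusted p = 5.28e-06) and ALDH1A1 at 1721 and 1680 CPM (0.33 ± 0.04, adjusted p = 1.96e-08). All of these Mix-Embed libraries were above both 2D libraries of the same gene.

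CD24 was at 449.8 and 440.7 CPM in Huh7 Mix-Embed, higher than both 2D libraries, with a log2 fold change of 0.27 ± 0.04 (adjusted p = 2.55e-06). PROM1 was at 61.6 and 58.8 CPM, between Inject-Embed and 2D, with a log2 fold change of -0.53 ± 0.09 (adjusted p = 2.01e-05). CD44 was at 3.41 and 3.42 CPM, with a log2 fold change of -0.57 ± 0.17 (adjusted p = 0.0141) on 93 counts against 152. The CD44 call was lost on leaving out any 1 of the 4 libraries compared, with adjusted p from 0.0579 to 0.087. The EPCAM call was lost with limma on log2(FPKM + 0.1) (adjusted p = 0.258).

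The 3D cultures of Huh7 also differed from each other. Inject-Embed against Mix-Embed gave 5 of the 10 members, 1 higher and 4 lower, where 22.9% of all genes tested passed (9.55% higher and 13.4% lower). CD24 had a log2 fold change of -0.95 ± 0.04 (adjusted p = 1.56e-21), PROM1 of -0.65 ± 0.10 (adjusted p = 1.45e-06) and ANPEP of -0.50 ± 0.06 (adjusted p = 2.75e-08), a call lost with limma on log2(FPKM + 0.1) (-0.46, adjusted p = 0.0601). ALDH1A1 was the member that was higher in Inject-Embed (0.60 ± 0.04, adjusted p = 4.96e-16). CD47 was 0.30 ± 0.11 lower on the log2 scale (adjusted p = 0.0367), a call kept in 7 of 21 alternative fits. It was lost without Huh7 Inject-Embed replicate 1 (adjusted p = 0.456), without Huh7 Mix-Embed replicate 1 (adjusted p = 0.0761) and without Huh7 Mix-Embed replicate 2 (adjusted p = 0.191), and also on leaving out 5 of the 6 HLF libraries.

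**Figure D2:**
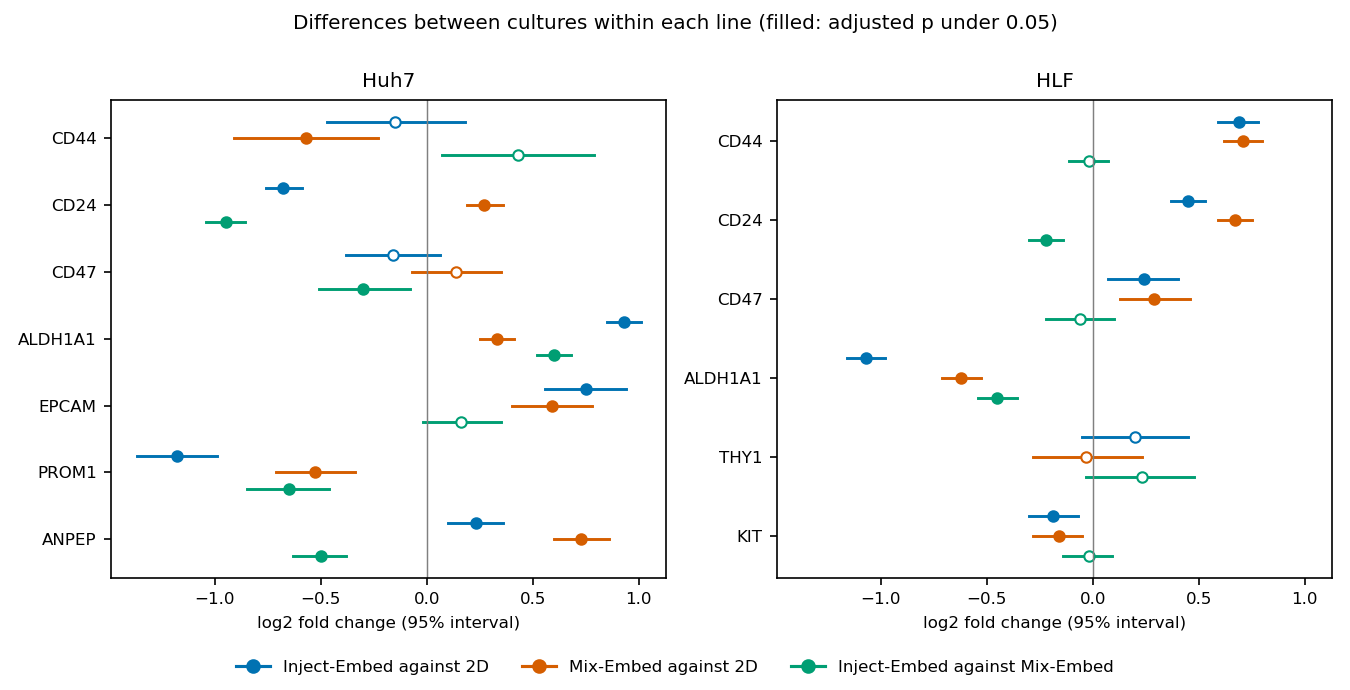
Log2 fold change with its 95% interval for each member at 1 CPM or more in every group of the line, in Huh7 (left) and HLF (right); colours are the 3 comparisons of cultures, and filled points had an adjusted p under 0.05 by edgeR. ALDH1A1 lies at 0.93 and 0.33 in the 3D cultures of Huh7 against 2D and at -1.07 and -0.62 in HLF.

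In HLF, CD44, CD24 and CD47 were higher and ALDH1A1 and, slightly, KIT lower in Inject-Embed than in 2D. Together with a rise of EPCAM from very few counts, 6 of the 10 members passed, 4 higher and 2 lower, where 17.9% of all genes tested passed (9.09% higher and 8.86% lower). Leaving out 1 library left 3 to 6 of these calls, and the 3 that held in all 21 alternative fits were CD44, CD24 and ALDH1A1. The count was 3 without HLF 2D replicate 2 and without HLF Inject-Embed replicate 1.

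CD44 was at 598.6 and 613.3 CPM in HLF Inject-Embed against 374 and 379.4 in 2D, a log2 fold change of 0.69 ± 0.05 (adjusted p = 6.55e-16). CD24 was at 977.9 and 947.7 CPM against 706.4 and 702.1, 0.45 ± 0.04 on the log2 scale (adjusted p = 6.31e-12). ALDH1A1 was at 179.4 and 176.7 CPM against 385.3 and 363.8, and its log2 fold change was -1.07 ± 0.04 (adjusted p = 2.69e-23). None of the 3 overlapped between the groups.

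The other calls in this comparison were smaller or rested on few reads. CD47 was at 71.8 and 72 CPM against 61.7 and 60.2 (0.24 ± 0.08, adjusted p = 0.0332), and KIT at 161.3 and 159.7 CPM against 183.2 and 182.5 (-0.19 ± 0.06, adjusted p = 0.018). Neither overlapped, and each was lost on leaving out any of the 4 compared libraries, with adjusted p from 0.113 to 0.188 for CD47 and 0.0926 to 0.134 for KIT. EPCAM had 13 and 6 counts in Inject-Embed against 3 and 0 in 2D, a ratio of 6.46 (95% counting interval 1.9 to 34.1, adjusted p = 0.0116). EPCAM kept this call in 16 of 21 alternative fits. By edgeR it was lost with the HLF libraries alone (adjusted p = 0.0762) and with the compared groups alone (adjusted p = 0.0732). With limma on log2(FPKM + 1) EPCAM did not pass either (adjusted p = 0.0992). Its call was lost without HLF 2D replicate 2 (adjusted p = 0.196) and without HLF Inject-Embed replicate 1 (adjusted p = 0.236). THY1, at 29.8 and 33.9 CPM against 29.7 and 25.8, did not pass (0.20 ± 0.13, adjusted p = 0.316).

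Mix-Embed against 2D in HLF, measured against the same 2D libraries, gave calls for CD44, CD24, CD47, ALDH1A1 and KIT. Of the 10 members 5 passed, 3 higher and 2 lower, where 29% of all genes tested passed (14.4% higher and 14.6% lower). CD44 was at 628.1 and 603.4 CPM (log2 fold change 0.71 ± 0.05, adjusted p = 1.12e-16), CD24 at 1156 and 1087 CPM (0.67 ± 0.04, adjusted p = 1.14e-17) and CD47 at 73.4 and 76.1 CPM (0.29 ± 0.08, adjusted p = 0.00396). ALDH1A1 was at 255.8 and 231.8 CPM (-0.62 ± 0.04, adjusted p = 9.09e-16), and KIT at 165.5 and 161.2 CPM (-0.16 ± 0.06, adjusted p = 0.0294). Every Mix-Embed library stood on the same side of both 2D libraries for these genes. Without HLF 2D replicate 2 the calls of CD47 (adjusted p = 0.0502) and KIT (adjusted p = 0.109) were lost, and KIT kept its call in 10 of 21 alternative fits.

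Between the 3D cultures of HLF, 2 of the 10 members passed, both lower in Inject-Embed, where 8.27% of all genes tested passed (3.56% higher and 4.71% lower). CD24 had a log2 fold change of -0.22 ± 0.04 (adjusted p = 1.55e-04) and ALDH1A1 of -0.45 ± 0.04 (adjusted p = 2.68e-10). CD44 differed by less than its replicates, with a 95% interval of -0.11 to 0.07 on the log2 scale.

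The response to culture differed between the lines for 4 members when the difference itself was tested. ALDH1A1, which rose in Huh7 and fell in HLF, had a difference (Huh7 minus HLF) of 2.00 ± 0.06 on the log2 scale for Inject-Embed against 2D (adjusted p = 1.72e-28) and 0.95 ± 0.06 for Mix-Embed against 2D (adjusted p = 7.25e-17). CD24, which fell in Huh7 Inject-Embed and rose in HLF Inject-Embed, had -1.13 ± 0.06 (adjusted p = 2.99e-19), and -0.40 ± 0.06 in Mix-Embed, where it rose in both lines (adjusted p = 1.05e-06). CD44 had -0.83 ± 0.17 (adjusted p = 1.24e-04) and -1.28 ± 0.17 (adjusted p = 1.62e-07), with its rise in HLF and 44 to 76 counts per library in Huh7. CD47 passed for Inject-Embed alone (-0.40 ± 0.13, adjusted p = 0.0237), and 8 of 19 alternative fits lost that call, among them that without Huh7 2D replicate 1, where the difference was -0.22 (adjusted p = 0.305).

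Those counts were 4 of the 10 members for Inject-Embed against 2D, 1 of them higher in Huh7 and 3 lower, where 24.8% of all genes tested passed (11.7% and 13.1%). They were 3 for Mix-Embed against 2D, 1 and 2, where 20.4% passed (10.2% higher and 10.2% lower), and 2 for Inject-Embed against Mix-Embed, 1 and 1, where 10.6% passed (4.62% and 5.95%). The last were CD24 (-0.73 ± 0.06, adjusted p = 7.17e-13) and ALDH1A1 (1.06 ± 0.06, adjusted p = 7.80e-18). EPCAM, PROM1, ANPEP, THY1 and KIT had 3 counts or fewer in a group of one line, so no difference of responses against 2D is given for them. All of the calls for CD44, CD24 and ALDH1A1 held in all 19 alternative fits of the difference.

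**Figure D3:**
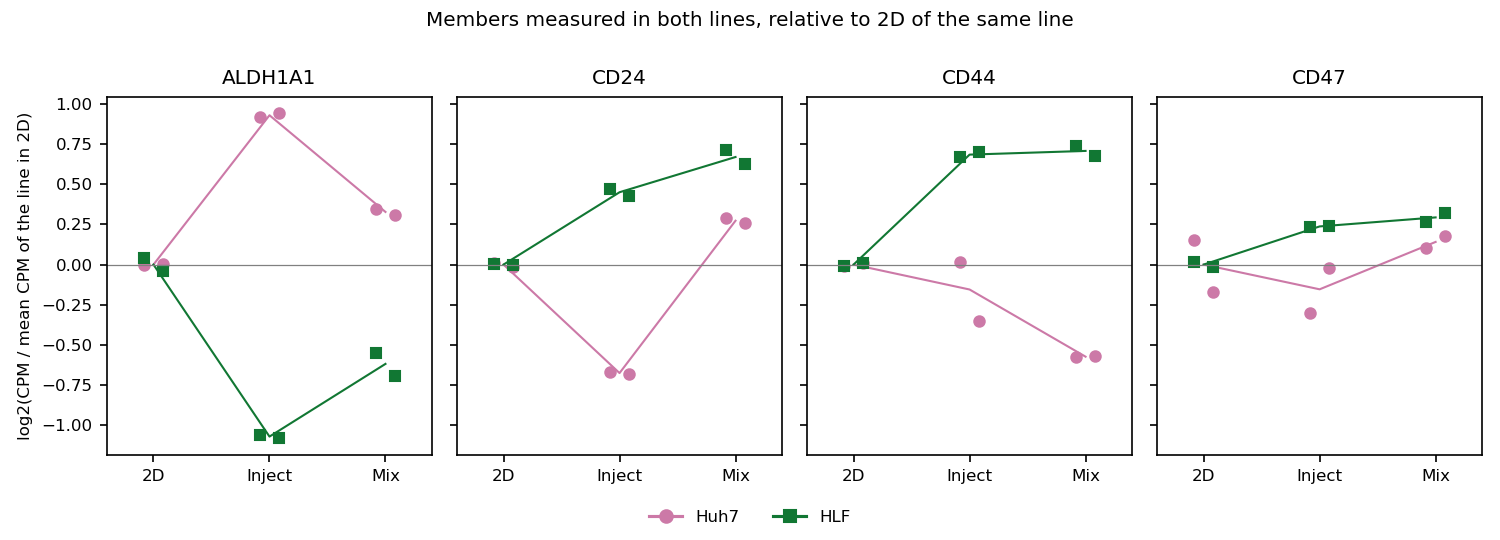
Level of the 4 members read in both lines, as log2 of CPM over the mean CPM of the same line in 2D, for each library in 2D, Inject-Embed (Inject) and Mix-Embed (Mix); circles are Huh7, squares HLF, and lines join the group means of 2. ALDH1A1 moves up in Huh7 and down in HLF with no library of the 3D cultures on the other side of 0, and CD24 separates the lines most in Inject-Embed.

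The order of the 6 groups was therefore gene-specific. ALDH1A1 ran from Huh7 Inject-Embed (2582.5 ± 34.8 CPM, SD, n = 2) through Huh7 Mix-Embed (1700 ± 29.1) and Huh7 2D (1354 ± 7.21) to HLF 2D (374.5 ± 15.2), HLF Mix-Embed (243.8 ± 17) and HLF Inject-Embed (178.1 ± 1.87), with no neighbours overlapping. CD24 ran from HLF Mix-Embed (1121 ± 49) and HLF Inject-Embed (962.8 ± 21.4) down to Huh7 Inject-Embed (230.5 ± 1.91), again with no overlap. CD44 was highest in HLF Mix-Embed (615.7 ± 17.4 CPM) and HLF Inject-Embed (606 ± 10.4), which overlapped. CD47 ran from 74.8 ± 1.85 CPM in HLF Mix-Embed to 22.1 ± 3 in Huh7 Inject-Embed, and its 3 Huh7 groups overlapped their neighbours in the order.

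Genes that work with the members were taken from lists chosen with earlier results of these data known. Their counts against 2D are read beside the shares of all genes tested, which were 13.2% higher and 16.7% lower in Huh7 Inject-Embed, 11.2% and 10.6% in Mix-Embed of Huh7, 9.09% and 8.86% in HLF Inject-Embed and 14.4% and 14.6% in HLF Mix-Embed. For CD44, the list of hyaluronan synthesis, breakdown and receptors had 9 tested genes. In Huh7, 1 was higher and 2 lower in Inject-Embed against 2D, and 1 and 2 in Mix-Embed. In HLF the counts were 1 and 0 in Inject-Embed, and 2 and 1 in Mix-Embed. HAS3, a hyaluronan synthase, went from 21.6 CPM in HLF 2D to 34.2 in Inject-Embed (log2 fold change 0.66 ± 0.12, adjusted p = 5.09e-05) and 35.8 in Mix-Embed (0.73 ± 0.12, adjusted p = 4.94e-06). UGDH, which makes a precursor of hyaluronan, rose in Huh7 Inject-Embed from 136.4 to 204.5 CPM (0.58 ± 0.06, adjusted p = 2.78e-11). The list of CD44 partners, sheddases and splicing factors had 13 tested genes, with 3 higher and 3 lower in Huh7 Inject-Embed, 1 and 4 in Mix-Embed of Huh7, 3 and 2 in HLF Inject-Embed and 5 and 3 in HLF Mix-Embed.

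Within that list VCAN, a matrix proteoglycan that binds hyaluronan, went opposite ways. It was at 31.6 CPM in Huh7 2D and 8.41 in Inject-Embed (log2 fold change -1.90 ± 0.14, adjusted p = 1.42e-14), and at 7.68 CPM in HLF 2D and 21.7 in Inject-Embed (1.5 ± 0.14, adjusted p = 3.36e-11). SPP1 (osteopontin), a secreted ligand of CD44, rose in HLF from 22.3 to 54.2 CPM in Inject-Embed (1.28 ± 0.12, adjusted p = 8.83e-12). NF2, the merlin gene, whose protein binds the tail of CD44, fell there from 185.7 to 128.2 CPM (-0.53 ± 0.06, adjusted p = 2.85e-10). MSN, which links CD44 to the cytoskeleton, was at 448 to 511 CPM in the HLF groups and had no count in the Huh7 groups. ESRP1, a splicing factor of epithelia, had no count in the HLF groups and stood at 3.22 to 6.26 CPM in Huh7.

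Around EPCAM, 16 tested relatives, partners and processing enzymes gave 3 higher and 3 lower in Huh7 Inject-Embed, 5 and 2 in Mix-Embed of Huh7, 3 and 1 in HLF Inject-Embed and 4 and 1 in HLF Mix-Embed. SPINT1, an inhibitor of the proteases that cut EPCAM, rose in Huh7 from 12.6 to 20.3 CPM in Inject-Embed (0.68 ± 0.16, adjusted p = 0.00101) and to 25 in Mix-Embed (0.99 ± 0.16, adjusted p = 6.05e-06). FHL2, a partner of the cut EPCAM tail, fell in HLF from 60.3 to 31.4 CPM in Inject-Embed (-0.94 ± 0.11, adjusted p = 4.98e-09). NCSTN, a subunit of gamma-secretase, rose in HLF from 124.6 to 165.2 CPM in Inject-Embed (0.41 ± 0.06, adjusted p = 4.37e-07).

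For CD47, 12 tested ligands, modifiers and phagocytosis signals gave 3 higher and 2 lower in Huh7 Inject-Embed, 1 and 2 in Mix-Embed of Huh7, 3 and 0 in HLF Inject-Embed and 6 and 0 in HLF Mix-Embed. Their median log2 fold change was 0.16 in Huh7 Inject-Embed and 0.07 in Huh7 Mix-Embed, over the 7 with more than 3 counts in both groups. In HLF the median over all 12 was 0.32 in Inject-Embed and 0.65 in Mix-Embed, where that of all genes tested was 0.00 in both. The HLF medians add SIRPG, THBS2, QPCT, PDCD1LG2 and STC1, which had 3 counts or fewer in Huh7 groups. The medians of the lines thus cover different genes and are not compared. THBS1 (thrombospondin), a secreted ligand of CD47, fell in Huh7 from 37.6 to 9.41 CPM in Inject-Embed (-1.99 ± 0.11, adjusted p = 1.65e-19) and to 8.28 in Mix-Embed (-2.17 ± 0.11, adjusted p = 2.13e-20). In HLF Mix-Embed it rose from 268.6 to 333.6 CPM (0.31 ± 0.06, adjusted p = 1.92e-05). SIRPA, the receptor for CD47, rose in HLF from 123.1 to 174.2 CPM in Inject-Embed (0.50 ± 0.05, adjusted p = 9.48e-10) and to 198 in Mix-Embed (0.69 ± 0.05, adjusted p = 4.76e-14). B2M, the light chain of class I antigens, rose there from 220 to 338.4 CPM in Mix-Embed (0.62 ± 0.05, adjusted p = 4.46e-14).

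Of 15 tested aldehyde dehydrogenases other than ALDH1A1, 5 were higher and 2 lower in Huh7 Inject-Embed, 5 and 0 in Mix-Embed of Huh7, 2 and 1 in HLF Inject-Embed and 4 and 2 in HLF Mix-Embed. ALDH2, the mitochondrial enzyme that clears acetaldehyde, rose in Huh7 from 115.3 to 179.4 CPM in Inject-Embed (0.64 ± 0.07, adjusted p = 6.74e-10), and stood at 0.124 CPM in HLF 2D. ALDH1B1, a mitochondrial relative, fell in HLF from 40.9 to 34.1 CPM in Inject-Embed (-0.26 ± 0.08, adjusted p = 0.0203) and to 29 in Mix-Embed (-0.49 ± 0.08, adjusted p = 9.49e-06). ALDH1A2 and ALDH1A3, the other retinal dehydrogenases of the class, stayed under 0.36 CPM in every group and were not tested.

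Retinoid genes, upstream and downstream of ALDH1A1, had 14 tested members, with 5 higher and 1 lower in each 3D culture of Huh7, 2 and 3 in HLF Inject-Embed and 3 and 2 in HLF Mix-Embed. RDH10, which makes the retinal that ALDH1A1 uses, rose in Huh7 Inject-Embed from 72 to 128.8 CPM (0.84 ± 0.07, adjusted p = 6.29e-13) and fell in HLF Inject-Embed from 18 to 13.4 (-0.43 ± 0.11, adjusted p = 0.00287). CYP26A1, which breaks down retinoic acid, rose in Huh7 from 0.604 to 3.81 CPM in Inject-Embed (2.64 ± 0.44, adjusted p = 7.26e-06) and to 5.58 in Mix-Embed (3.19 ± 0.43, adjusted p = 1.76e-07). STRA6, a retinol transporter, rose in HLF from 15.2 to 36.6 CPM in Inject-Embed (1.27 ± 0.12, adjusted p = 2.06e-11) and to 65.2 in Mix-Embed (2.10 ± 0.11, adjusted p = 5.72e-19).

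Pluripotency and self-renewal factors, the company of SOX2, had 7 tested genes of 14. NANOG, at 0.0337 CPM or less in every group, was not tested. POU5F1 was at 0.178 CPM or less in the Huh7 groups and at 7.16 to 8.76 CPM in the HLF groups. Of the 7 tested genes, 4 were higher and 0 lower in Huh7 Inject-Embed, and 1 and 0 in Mix-Embed of Huh7. In HLF none was higher and 2 were lower in each 3D culture. Over all genes tested, 13.2% were higher in Huh7 Inject-Embed and 11.2% in Mix-Embed, and 8.86% and 14.6% were lower in HLF, in the same order of cultures. MYC rose in Huh7 Inject-Embed from 95.6 to 186.5 CPM (0.96 ± 0.06, adjusted p = 2.15e-17) and fell in HLF Inject-Embed from 115.5 to 84.9 (-0.44 ± 0.06, adjusted p = 2.18e-07). LIN28B, which blocks maturation of let-7 microRNAs, rose in the first from 354.5 to 458.1 CPM (0.37 ± 0.05, adjusted p = 2.45e-07) and fell in the second from 80.2 to 54.4 (-0.56 ± 0.07, adjusted p = 5.84e-09). Of the other SOX factors 11 were tested, with 0 higher and 2 lower in Huh7 Inject-Embed, 2 and 1 in Mix-Embed of Huh7, and 3 and 1 in each 3D culture of HLF. SOX9, a factor of bile duct and progenitor cells, rose in HLF from 15.8 to 41.9 CPM in Inject-Embed (1.41 ± 0.08, adjusted p = 3.03e-18).

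For KIT, the ligand KITLG was higher in the line without the receptor, at 158.3 CPM in Huh7 2D and 26.5 in HLF 2D. The 11 tested genes of the KIT ligand and related receptors gave 0 higher and 4 lower in Huh7 Inject-Embed, 0 and 3 in Mix-Embed of Huh7, 4 and 3 in HLF Inject-Embed and 5 and 2 in HLF Mix-Embed. CSF1, the ligand of a sister receptor, fell in Huh7 Inject-Embed from 8.88 to 2.4 CPM (-1.88 ± 0.20, adjusted p = 5.74e-10). It rose in HLF from 23.3 to 34.3 CPM in Inject-Embed (0.56 ± 0.11, adjusted p = 9.67e-05) and to 86.4 in Mix-Embed (1.89 ± 0.10, adjusted p = 1.66e-19).

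For ANPEP, 10 other ectopeptidases were tested, with 1 higher and 3 lower in Huh7 Inject-Embed, 2 and 3 in Mix-Embed of Huh7, and 6 and 0 in each 3D culture of HLF. Over all genes tested, 9.09% were higher in HLF Inject-Embed and 14.4% in HLF Mix-Embed. The median log2 fold change of these peptidases was -0.17 in Huh7 Inject-Embed and 0.07 in Huh7 Mix-Embed. These cover the 9 with more than 3 counts in both groups. In HLF the medians, over all 10 with MME added, were 0.62 in Inject-Embed and 0.57 in Mix-Embed. The median of all genes tested in HLF was 0.00 in both. ERAP2, which trims peptides for antigen presentation, rose there from 108.6 to 175.1 and 199 CPM (0.69 ± 0.06 and 0.87 ± 0.06, adjusted p = 2.42e-12 and 7.14e-16). CPM, a carboxypeptidase gene that shares its name with the unit, fell in Huh7 from 80.9 to 20.5 in that unit in Inject-Embed (-1.98 ± 0.11, adjusted p = 2.30e-19). For the lipid-anchored members CD24 and THY1, 23 genes of anchor assembly, transfer and release were tested. They gave 5 higher and 1 lower in each 3D culture of Huh7, 4 and 0 in HLF Inject-Embed and 9 and 0 in HLF Mix-Embed, and GPAA1, a subunit of the enzyme that attaches the anchor, rose in Huh7 Inject-Embed from 99.7 to 140.1 CPM (0.49 ± 0.06, adjusted p = 1.86e-08).

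**Figure D4:**
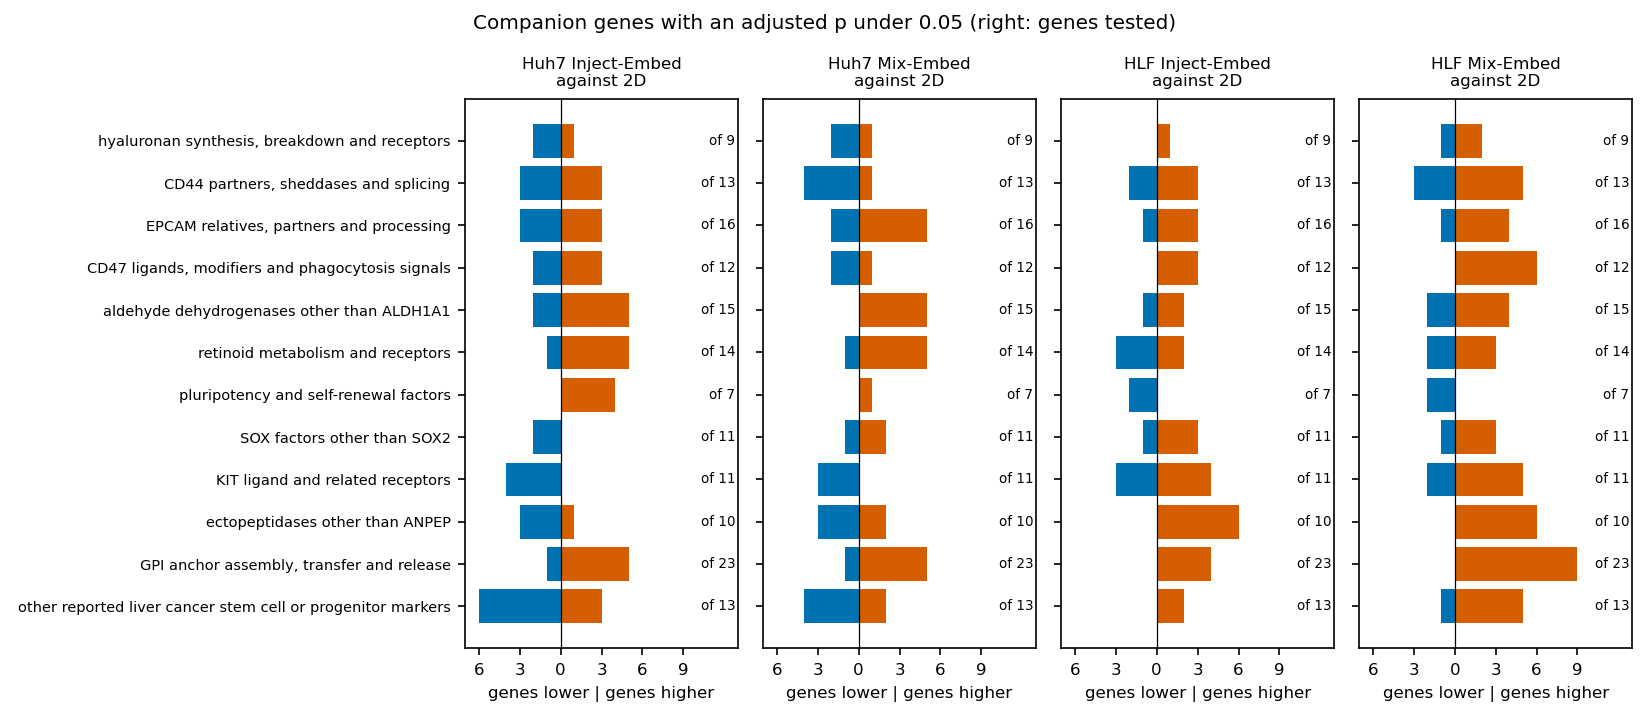
Number of genes in each companion list that were higher (right of 0) or lower (left of 0) with an adjusted p under 0.05 by edgeR, for the 4 comparisons of a 3D culture with 2D; the number at the right of each bar is how many genes of the list were tested. The list headed ectopeptidases, which includes the intracellular ERAP1 and ERAP2, shows 6 higher and 0 lower of 10 in both 3D cultures of HLF. There 9.09% (Inject-Embed) and 14.4% (Mix-Embed) of all genes tested were higher.

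Further genes reported as liver cancer stem cell or progenitor markers gave 3 higher and 6 lower of 13 tested in Huh7 Inject-Embed, 2 and 4 in Mix-Embed of Huh7, 2 and 0 in HLF Inject-Embed and 5 and 1 in HLF Mix-Embed. Over all genes tested, 13.2% were higher and 16.7% lower in Huh7 Inject-Embed, and 14.4% and 14.6% in HLF Mix-Embed. ICAM1, an adhesion molecule, fell in Huh7 from 47.2 to 8.94 CPM in Inject-Embed (-2.40 ± 0.15, adjusted p = 5.01e-17). GPC3, a proteoglycan of liver tumours, fell from 1224 to 828 CPM (-0.56 ± 0.04, adjusted p = 4.72e-14). LGR5, a receptor of intestinal and liver stem cells, rose in Huh7 Mix-Embed from 38.1 to 66.9 CPM (0.81 ± 0.10, adjusted p = 3.52e-08). AFP, the fetal serum protein, fell in Huh7 Inject-Embed from 25044 to 19479 CPM (-0.36 ± 0.04, adjusted p = 3.65e-10). In the same comparison ABCG2 went from 12.1 to 23.2 CPM, KRT19 from 40.9 to 63.5 and LGR5 from 38.1 to 53.8. In HLF, AFP rose from 0.56 CPM to 5.16 in Inject-Embed (3.18 ± 0.23, adjusted p = 8.01e-15) and 8.38 in Mix-Embed (3.86 ± 0.21, adjusted p = 1.31e-19). 

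The genes nearest to each member in pattern were ranked by Pearson correlation of log2 CPM over the 12 libraries after the mean of each line was taken off, among 14020 protein-coding genes. The libraries share cultures and replicates, so these values are descriptions. CD24 was followed most closely by P4HA1, a collagen prolyl hydroxylase subunit (r = 0.987), PLIN2, a coat protein of lipid droplets (0.986), and HGFAC (0.978). P4HA1 was at 301.1 CPM in Huh7 2D, 153.3 in Inject-Embed and 375.5 in Mix-Embed, and at 53.1, 97.6 and 114.7 CPM in HLF. ALDH1A1 was followed by PPIF, a mitochondrial cyclophilin (0.973), SLC3A2, the heavy chain of amino acid transporters (0.966), and GEMIN4 (0.963). SLC3A2 stood at 201.5, 288.2 and 235.1 CPM in Huh7 and at 127.1, 93.4 and 101.9 in HLF, in the same order of cultures.

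The nearest gene was CXCL5, a chemokine, for CD44 (0.925), TRIM38 for CD47 (0.969), SLC6A16 for PROM1 (0.928), TSGA10 for ANPEP (0.902), CFAP61 for EPCAM (0.905), ADAP2 for THY1 (0.825) and ASZ1 for KIT (0.99). CFAP61 and ASZ1 had no count in Huh7, so these likenesses rest on the HLF libraries. There EPCAM had 0 to 13 counts, and ASZ1 was at 1.03 CPM in 2D and lower in the 3D cultures. PROM1 and ANPEP had 0 to 2 counts in each HLF library, and THY1 had 0 to 2 in each Huh7 library. The likenesses of these members thus rest mainly on the other line. CXCL5 was at 0.281 to 1.15 CPM in the HLF groups.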

How the data were processed

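Poly-A RNA from 12 libraries of Huh7 and HLF was used as deposited. The authors deposited whole-number counts and FPKM for 58735 genes, with FastQC, Trimmomatic, STAR 2.7.9a, featureCounts and GRCh38 named in the submitters' processing notes. Settings, strand and annotation release are not stated in those notes or the labels. The deposited FPKM equal counts over gene length and library total for all 167453 values with at least 20 counts, within a relative 1e-06. Columns were assigned to samples by line, culture and replicate number, with the short name for embedded cells read as Mix-Embed, and nothing was left out.

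Counts were tested with edgeR 4.0.16 (R 4.3.3): TMM scaling, filterByExpr with a minimum count of 10 (19342 genes), a mean for each of the 6 groups, quasi-likelihood tests and Benjamini-Hochberg adjustment over all genes, called at 0.05. Replicates varied by 4.59% (the square root of the common dispersion, 0.00211). Within a line the cultures were compared in all 3 pairs, Huh7 with HLF in each culture, and the responses of the lines with each other, 12 comparisons in all. CPM are counts over TMM-scaled totals. SEs follow from each log2 fold change and its F statistic. Where a group had no count, 3 counts over that group stood in for the bound, and with 1 to 3 counts the ratio has a 95% counting interval. Alternatives were other scaling, no filter, DESeq2 1.42.0, limma 3.58.1 on log2(FPKM + 1) and log2(FPKM + 0.1), a replicate block, fewer libraries in the fit, and each library left out.

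The members and all gene lists were chosen with earlier results of these data known. All 10 members are named. Of each companion list, up to 4 genes per comparison within a line were taken. They had the smallest adjusted p and at least 1 CPM in the higher group. The text gives a selection of these, chosen after their values were seen. Levels of KITLG, MSN, ESRP1, ALDH1A2, ALDH1A3, NANOG, POU5F1, ABCG2 and KRT19, and of LGR5 in Inject-Embed, were also chosen after they were seen. The 3 genes of most similar pattern were ranked for each member at 1 CPM or more. Replicates are biological per the series' design text; separate cultures are not stated, and if the spread is technical the p-values measure only that. Figures used python 3.11.15 with matplotlib 3.10.9.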

Additional observations from a re-analysis of the deposited data

Results flagged for a closer look

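Responses to culture that differed between Huh7 and HLF, by the edgeR test of the difference itself with adjustment over all genes, stand out for 4 members, as Huh7 minus HLF on the log2 scale. For Inject-Embed against 2D they were CD44 (-0.83 ± 0.17, adjusted p = 1.24e-04), CD24 (-1.13 ± 0.06, adjusted p = 2.99e-19), CD47 (-0.40 ± 0.13, adjusted p = 0.0237) and ALDH1A1 (2.00 ± 0.06, adjusted p = 1.72e-28). For Mix-Embed against 2D they were CD44 (-1.28 ± 0.17, adjusted p = 1.62e-07), CD24 (-0.40 ± 0.06, adjusted p = 1.05e-06) and ALDH1A1 (0.95 ± 0.06, adjusted p = 7.25e-17). Between the 3D cultures they were CD24 (-0.73 ± 0.06, adjusted p = 7.17e-13) and ALDH1A1 (1.06 ± 0.06, adjusted p = 7.80e-18). The CD47 difference is the one among these 9 that some alternative fits lost, 8 of 19.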

How the results depend on the processing

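No member changed the direction of a call under any of 21 alternatives. Of 1912 member values, 1842 kept their side of the threshold, 67 lost a call and 3 gained one. Among the 1842 are 23 that passed in neither fit and changed sign. Of 29 member calls within a line 18 held in every alternative and 11 were lost in some, and the difference of the lines kept 8 of 9. With limma on log2(FPKM + 0.1), 3 members passed in Huh7 Inject-Embed against 2D (5 by edgeR) and 3 in HLF Mix-Embed against 2D (5 by edgeR), and 670 genes in HLF Inject-Embed against Mix-Embed (1600 by edgeR). With limma on log2(FPKM + 1), 3 members passed in HLF Inject-Embed against 2D (6 by edgeR) and 982 genes in HLF Inject-Embed against Mix-Embed; the cause was not tested. Leaving out 1 library at a time gave 2693 to 4219 genes in Huh7 Mix-Embed against 2D (4203 with all), the lowest without Huh7 Mix-Embed replicate 2. In HLF Inject-Embed against 2D it gave 2246 to 3772 genes (3471 with all) and 3 to 6 members, with 2273 genes or fewer without HLF 2D replicate 1 or either HLF Inject-Embed replicate, and in HLF Mix-Embed against 2D 3 to 5 members. In HLF Inject-Embed against Mix-Embed it gave 747 to 1847 genes (1600 with all), with 1033 or fewer without any 1 of the 4 compared libraries.

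Same-numbered replicates did not deviate together over genes as a whole, with correlations of -0.177 to 0.17 over 15 pairs of groups and 9864 genes. A shared effect that is small or limited to few genes could not be seen this way. With the replicate block, 5757 genes and 5 members passed in Huh7 Inject-Embed against 2D, 3465 and 6 in HLF Inject-Embed against 2D, and no count of member calls changed. Scaling by library totals alone shifted the median log2 fold change of all genes by -0.16, -0.16 and -0.23 in the line comparisons (2D, Inject-Embed, Mix-Embed) and by at most 0.07 in size elsewhere. Depth limits SOX2 in all groups and EPCAM in HLF, each at 13 counts or fewer per library.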
